A study of Homo sapiens with 6 samples.

Results

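The miR-26 and miR-101 miRNAs were followed in small RNA libraries of U2OS, a long-used human cell line that came from an osteosarcoma, a bone tumour. The members are the 6 arms listed by name, hsa-miR-26a-5p, hsa-miR-26b-5p, hsa-miR-101-3p, hsa-miR-26a-2-3p, hsa-miR-26b-3p and hsa-miR-101-5p, given below without the prefix hsa. All 6 were present among the 1155 mature miRNAs of the deposited table, and 5 of them reached the mean of 1 CPM (reads scaled to a library total of 1000000) that was needed for testing. The LINC00673 group held 3 libraries, labelled with the name of a long intergenic non-coding RNA. The design text speaks of U2OS cells that stably carry an shRNA against this RNA, and the LINC00673 label was read as those cells. The NC group held 3 libraries of U2OS cells, and the same text names wild-type cells as the comparison. The labels do not say whether NC cells carried a control construct, although sample titles of both groups start with Lv, nor whether replicates were separate cultures or clones, so a p-value here covers variation among libraries that may be only technical.

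A miRNA hairpin is cut into a duplex of a 5p and a 3p arm, of which usually only the main arm is loaded onto an Argonaute protein and guides it to mRNAs that match its seed, bases 2 to 8. The miR-26 and miR-101 main arms are known to repress EZH2, the catalytic subunit of Polycomb repressive complex 2, which methylates lysine 27 of histone H3 and silences genes. Loss of miR-101 with a gain of EZH2 has been described in prostate cancer, and miR-26 is known as a tumour suppressor that the oncogene product MYC represses.

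The arms are shown because the seed decides which mRNAs can be bound, and because near-identical arms limit how far reads can be told apart. Sequences are from RefSeq (GRCh38.p14), 5′ to 3′, with the seed in capitals, and all 6 arms matched an entry, as did miR-26a-1-3p, the remaining arm of the miR-26a hairpins.
miR-26a-5p: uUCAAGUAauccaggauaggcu
miR-26b-5p: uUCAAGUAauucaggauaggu
miR-101-3p: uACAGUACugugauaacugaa
miR-26a-1-3p: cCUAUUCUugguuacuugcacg
miR-26a-2-3p: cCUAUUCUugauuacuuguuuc
miR-26b-3p: cCUGUUCUccauuacuuggcu
miR-101-5p: cAGUUAUCacagugcugaugcu
The 5p arms of miR-26a and miR-26b share the seed UCAAGUA and 19 positions in all, and they differ by C11U and C21U (miR-26a base, position from the 5′ end, miR-26b base) and by the extra last base of miR-26a-5p. The seed of miR-101-3p is ACAGUAC. The 3p arms of the miR-26a hairpins share their seed and differ by G11A, C19U, A20U, C21U and G22C (miR-26a-1-3p base first).

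The 5 hairpins are shown with their arms in capitals, since they set which locus an arm can report on.
MIR26A1: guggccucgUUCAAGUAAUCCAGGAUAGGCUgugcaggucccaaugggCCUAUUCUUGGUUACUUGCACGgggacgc
MIR26A2: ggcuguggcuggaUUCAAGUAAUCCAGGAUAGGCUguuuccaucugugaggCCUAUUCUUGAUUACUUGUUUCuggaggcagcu
MIR26B: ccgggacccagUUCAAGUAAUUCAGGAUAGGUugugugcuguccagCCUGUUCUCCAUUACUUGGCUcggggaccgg
MIR101-1: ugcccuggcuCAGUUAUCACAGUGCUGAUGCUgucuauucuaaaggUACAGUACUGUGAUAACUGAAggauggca
MIR101-2: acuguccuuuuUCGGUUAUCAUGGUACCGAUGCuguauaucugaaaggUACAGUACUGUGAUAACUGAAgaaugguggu
MIR26A1 lies at chr3:37969404-37969480 on the plus strand in an intron of CTDSPL, MIR26A2 at chr12:57824609-57824692 on the minus strand in an intron of CTDSP2, and MIR26B at chr2:218402646-218402722 on the plus strand in an intron of CTDSP1 (GRCh38, hosts from GENCODE release 29). The hosts encode small phosphatases that act on the C-terminal domain of RNA polymerase II and related substrates. MIR101-1 lies at chr1:65058434-65058508 on the minus strand outside annotated host genes, and MIR101-2 at chr9:4850297-4850375 on the plus strand in an intron of RCL1. MIR26A1 and MIR26A2 hold the same 5p arm, and the MIR101-1 and MIR101-2 hairpins hold the same 3p arm, so the levels of miR-26a-5p and miR-101-3p sum over a pair of loci each.

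The relation of these seeds to EZH2 is shown by letters alone, since no mRNA was measured. The EZH2 transcript with the longest 3′ UTR (262 bases, GENCODE release 29) held 2 matches to the miR-101-3p seed complement GTACTGT and 1 to the miR-26 seed complement TACTTGA, searched on the transcript strand and shown in capitals.
EZH2 miR-101 match, bases 59 to 65 of the UTR: gccttagcttcaggaacctcgaGTACTGTg
EZH2 miR-101 match, bases 114 to 120 of the UTR: tttgaaattctgaatttgcaaaGTACTGTa
EZH2 miR-26 match, bases 250 to 256 of the UTR: tttttcaactttgaataaagaaTACTTGAa
The matches lie on the minus strand at chr7:148807581-148807587, chr7:148807526-148807532 and chr7:148807390-148807396 (GRCh38). Of the 6 EZH2 transcripts examined, 6 held GTACTGT and 4 held TACTTGA. Among 632 3′ UTRs within 10 percent of that length, 1 for each gene, 2.22% held GTACTGT and 2.22% held TACTTGA. Such matches are a description and do not show binding in these cells.

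Reads in the 1155 rows came to 265883, 534807 and 543144 for LINC00673 replicates 1, 2 and 3, against 331387, 215496 and 211242 for NC replicates 1, 2 and 3. Reads listed under several names may be counted more than once in these totals. A level of 3 reads, taken here as the floor of what counts can show, came to 3.93 to 7.89 CPM in the LINC00673 libraries and 6.21 to 10.1 CPM in the NC libraries. The extent of LINC00673 depletion was not measured by these miRNA libraries. All 7 listed miRNAs typical of mesenchymal cells were present (in sum 204001 to 230140 CPM with the LINC00673 label, 153744 to 224707 CPM with NC), and all 7 had a log2 difference above 0, as did 431 of all 810 miRNAs tested. Most of each sum was miR-21-5p (156514 to 176386 CPM with the LINC00673 label, 116612 to 181624 CPM with NC). By contrast, miR-214-3p was near the floor, with 3, 7 and 6 reads in LINC00673 replicates 1, 2 and 3, against 3, 3 and 1 in NC. Of the 7, 0 passed limma (3 at an unadjusted p under 0.05, against 6.67% of all miRNAs as higher), 1 passed edgeR (against 1.85%) and 0 passed DESeq2 (2 at an unadjusted p under 0.05, against 3.09%). The shared sign holds for the arms listed. Among their partner arms, miR-199a-5p, miR-214-5p and miR-100-3p had limma log2 differences of -0.59, -0.42 and -0.42. Those of miR-21-3p, miR-221-5p, miR-222-5p, miR-125b-1-3p and miR-125b-2-3p were 0.28, 0.62, 0.51, 0.79 and 1.78. The 5 epithelial miRNAs, among them the miR-200 family, summed to 2.63 to 21.0 CPM with the LINC00673 label and to 16.1 to 23.7 CPM with NC. Other marker miRNAs were not all low: the endothelial miR-126-3p had 2987 to 3931 CPM with the LINC00673 label and 3617 to 5437 CPM with NC (log2 difference -0.36, not past limma, edgeR or DESeq2), and the neural miR-9-5p had 2027 to 2141 CPM with the LINC00673 label and 1820 to 2106 CPM with NC. The 12 epithelial, blood, liver, muscle, neural and endothelial markers in the table summed to 5246 to 6215 CPM with the LINC00673 label and 5721 to 7628 CPM with NC. The part of these levels in the results below was not tested.

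miR-26a-5p stood higher and miR-101-3p lower in the LINC00673 than in the NC libraries, and the levels of miR-26b-5p overlapped. None of these differences passed the main test of the comparison, limma on log2(CPM + 1) with Benjamini-Hochberg adjustment over all 810 miRNAs tested. That test passed 0.247% of them (2 higher and 0 lower), with 54 higher and 36 lower at an unadjusted p under 0.05. On the reads recovered from the CPM values, edgeR's quasi-likelihood test passed miR-26a-5p as higher, where it passed 1.85% of miRNAs in that direction and 2.72% in either. DESeq2 passed miR-101-3p as lower, where it passed 0.864% in that direction and 1.23% in either (0.37% as higher). These shares are over all 810, although DESeq2 gave some low miRNAs, such as miR-26b-3p, no adjusted p. Such miRNAs could not pass, so the shares among those that could were larger. The calls for the same arm thus depended on the tool, and the tools also scaled the libraries differently. The median log2 difference over all 810 was 0.12 in edgeR and 0.01 in DESeq2, against 0.06 in limma. With the TMM scaling that edgeR used, limma gave 0.63 for miR-26a-5p (adjusted p = 0.0808) and -0.49 for miR-101-3p (adjusted p = 0.171).

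miR-26a-5p had 3379, 4717 and 4128 CPM in LINC00673 replicates 1, 2 and 3, against 2123, 3124 and 3309 CPM in NC replicates 1, 2 and 3. The lowest LINC00673 library exceeded the highest NC library, but LINC00673 replicate 1 and NC replicate 3 were only a little apart. These levels rested on 1285 to 3502 reads in the LINC00673 and 973 to 1026 reads in the NC libraries. Counting error was small beside the spread within groups. It was not small beside the gap between LINC00673 replicate 1 (1285 reads) and NC replicate 3 (978 reads). The lack of overlap could therefore turn on counting alone. The LINC00673 group averaged 4075 ± 671 CPM and the NC group 2852 ± 638 CPM (± SD, n = 3 each). The log2 difference was 0.53, standard error (SE) 0.18 (95% interval 0.15 to 0.91, limma adjusted p = 0.195, the 35th smallest p of the 810). edgeR gave a log2 difference of 0.62 (adjusted p = 0.0339) and DESeq2 0.51 (adjusted p = 0.115). In limma the difference was 0.33 without NC replicate 1, the lowest library. The edgeR call was lost on leaving out LINC00673 replicate 1, 2 or 3 or NC replicate 1 or 2 (adjusted p = 0.302, 0.376, 0.553, 0.199 and 0.0948), and held without NC replicate 3 (adjusted p = 0.00157).

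miR-26b-5p, which carries the same seed from the CTDSP1 intron, had 6532, 6342 and 6532 CPM in LINC00673 replicates 1, 2 and 3, against 6441, 5510 and 5034 CPM in NC replicates 1, 2 and 3. The groups overlapped, since NC replicate 1 lay above LINC00673 replicate 2. The LINC00673 libraries were close together (6469 ± 110 CPM) and the NC libraries spread more widely (5662 ± 715 CPM, SD, n = 3 each). The log2 difference was 0.20, SE 0.15 (limma adjusted p = 0.694), and its 95% interval ran from -0.12 to 0.52. It was 0.12 without NC replicate 3. How reads that could come from either miR-26 5p arm were assigned is not known, so the split between these arms is uncertain. Neither edgeR (adjusted p = 0.453) nor DESeq2 (adjusted p = 0.723) passed it.

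miR-101-3p, the main arm of both miR-101 hairpins, had 1899, 2304 and 2192 CPM in LINC00673 replicates 1, 2 and 3, against 3530, 3676 and 2551 CPM in NC replicates 1, 2 and 3. The highest LINC00673 library fell short of the lowest NC library, and NC replicate 3 was the nearest to the LINC00673 range. The levels rested on 722 to 1710 reads in the LINC00673 and 754 to 1706 reads in the NC libraries. The LINC00673 group averaged 2131 ± 209 CPM and the NC group 3252 ± 612 CPM (± SD, n = 3 each). The log2 difference was -0.60, SE 0.17 (95% interval -0.96 to -0.24, limma adjusted p = 0.156, the 12th smallest p of the 810). DESeq2 gave -0.62 (adjusted p = 0.0423) and edgeR -0.51 (adjusted p = 0.134). DESeq2 was not run with a library left out, so how its call depends on single libraries was not tested. Of the 6 edgeR fits that left out 1 library, the fit without NC replicate 3, the NC library nearest to the LINC00673 range, passed it (log2 difference -0.64, adjusted p = 0.00214). The others did not, with adjusted p = 0.473, 0.395 and 0.537 without LINC00673 replicates 1, 2 and 3, and 0.247 and 0.452 without NC replicates 1 and 2. Leaving out NC replicate 3 also raised the edgeR calls over all miRNAs to 36 higher and 13 lower. The 2 main arms whose groups did not overlap are to be read against 15.4% of all 810 miRNAs, and 23.3% of the 60 that averaged 1000 CPM or more. By direction the shares over all 810 were 7.78% above and 7.65% below.

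**Figure D1:**
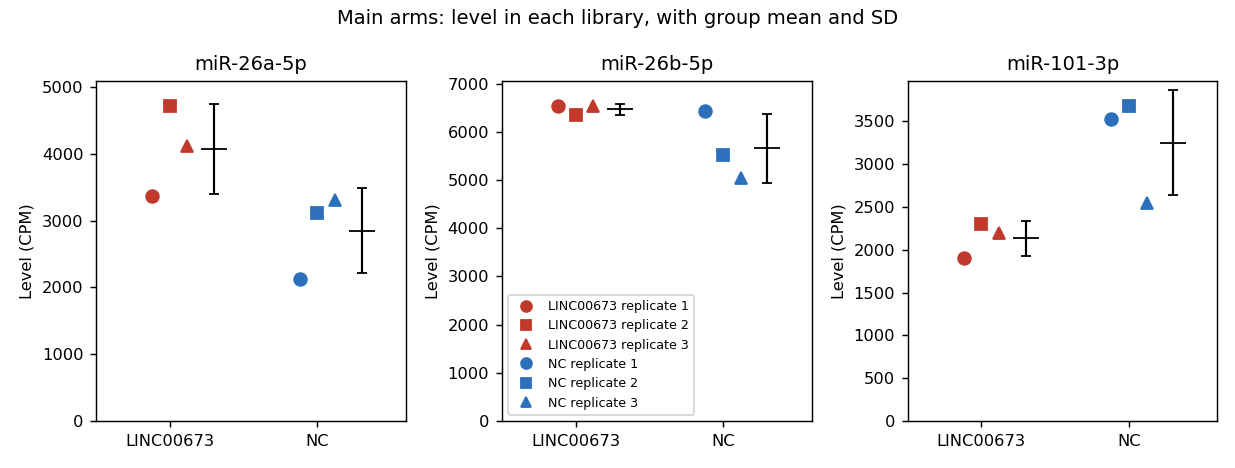
Levels of the 3 main arms in CPM on the vertical axes (starting at 0), with LINC00673 libraries on the left and NC libraries on the right of each panel, 1 symbol for each replicate number and the group mean ± SD (n = 3) as a black bar. The LINC00673 libraries lie above the NC libraries for miR-26a-5p (3379 to 4717 against 2123 to 3309 CPM), overlap them for miR-26b-5p and lie below them for miR-101-3p (1899 to 2304 against 2551 to 3676 CPM).

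The order of the main arms by level also differed between libraries. Adapter ligation favours some sequences, so an order of levels is one of reads, not of molecules. In all 3 LINC00673 libraries miR-26b-5p was highest, miR-26a-5p next and miR-101-3p lowest, with no overlap between the arms' ranges. In the NC libraries miR-26b-5p was again highest, while miR-101-3p lay above miR-26a-5p in replicates 1 and 2 and below it in replicate 3, so that their ranges overlapped. By the mean over all 6 libraries, miR-26b-5p, miR-26a-5p and miR-101-3p ranked 20, 33 and 37 among the 1155 miRNAs.

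Ratios of arms within a library do not depend on how the library was scaled, and they give the level of 1 arm relative to another. The ratio of miR-26a-5p to miR-101-3p was 1.78, 2.05 and 1.88 in LINC00673 replicates 1, 2 and 3, against 0.601, 0.850 and 1.30 in NC replicates 1, 2 and 3. Since miR-26a-5p was higher and miR-101-3p lower in each LINC00673 library, this ratio had to separate the groups, and it adds the size of the shift but no further test. The log2 ratio averaged 0.93 ± 0.10 in the LINC00673 group and -0.20 ± 0.56 in the NC group (± SD, n = 3 each). The difference of 1.12 on the log2 scale, or 2.18-fold, therefore had the two-sided exact permutation p of 0.1 that is the smallest 3 against 3 allows (0.2 adjusted over the 4 ratios tested). The ratio of miR-26b-5p to miR-101-3p was 3.44, 2.75 and 2.98 in LINC00673 replicates 1, 2 and 3, against 1.82, 1.50 and 1.97 in NC replicates 1, 2 and 3. No overlap was seen here either, with a log2 difference of 0.80 (exact permutation p = 0.1, adjusted p = 0.2). The ranges of the 2 arms given above already fixed this separation, so this ratio adds no further test either.

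Within the miR-26 pair the shift was not separable from the spread. The ratio of miR-26a-5p to miR-26b-5p was 0.517, 0.744 and 0.632 in LINC00673 replicates 1, 2 and 3, against 0.330, 0.567 and 0.657 in NC replicates 1, 2 and 3. NC replicate 1 stood lowest and the other NC libraries lay within the LINC00673 range. The log2 difference was 0.33 (exact permutation p = 0.5, adjusted p = 0.667), and 0.03 without NC replicate 1.

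**Figure D2:**
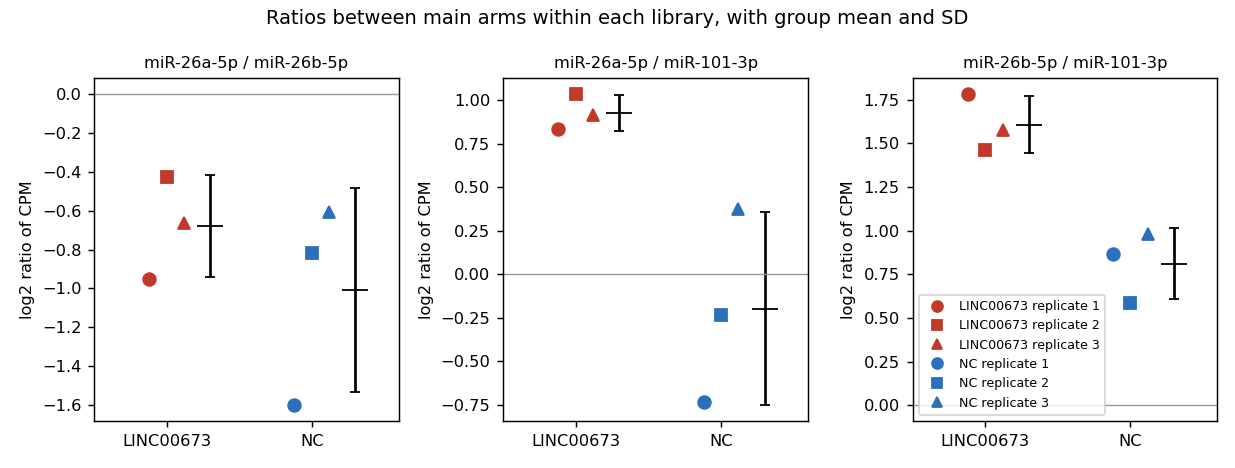
The log2 ratio of CPM between pairs of main arms in each library, LINC00673 on the left and NC on the right of each panel, with group mean ± SD (n = 3) as black bars. For miR-26a-5p over miR-101-3p and miR-26b-5p over miR-101-3p the LINC00673 points all lie above the NC points, while for miR-26a-5p over miR-26b-5p the groups overlap.

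Summed over the shared miR-26 seed, the 5p arms came to 9911, 11059 and 10660 CPM in LINC00673 replicates 1, 2 and 3, against 8564, 8634 and 8343 CPM in NC replicates 1, 2 and 3. The NC libraries were close together in this sum (8514 ± 152 CPM, against 10543 ± 583 CPM in the LINC00673 libraries, SD, n = 3 each), although miR-26a-5p and miR-26b-5p each varied more among them. With miR-101-3p added, the sum of the 3 main arms was 11809, 13363 and 12852 CPM in LINC00673 replicates 1, 2 and 3, against 12093, 12310 and 10894 CPM in NC replicates 1, 2 and 3, and the groups overlapped. Of this sum, miR-101-3p took 16.1%, 17.2% and 17.1% in LINC00673 replicates 1, 2 and 3, against 29.2%, 29.9% and 23.4% in NC replicates 1, 2 and 3. The total of reads with either seed thus overlapped between the groups while its makeup did not. The ranges of miR-101-3p and of the summed miR-26 5p arms already fixed the separation in makeup, so it adds no further result. These sums were given no test.

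**Figure D3:**
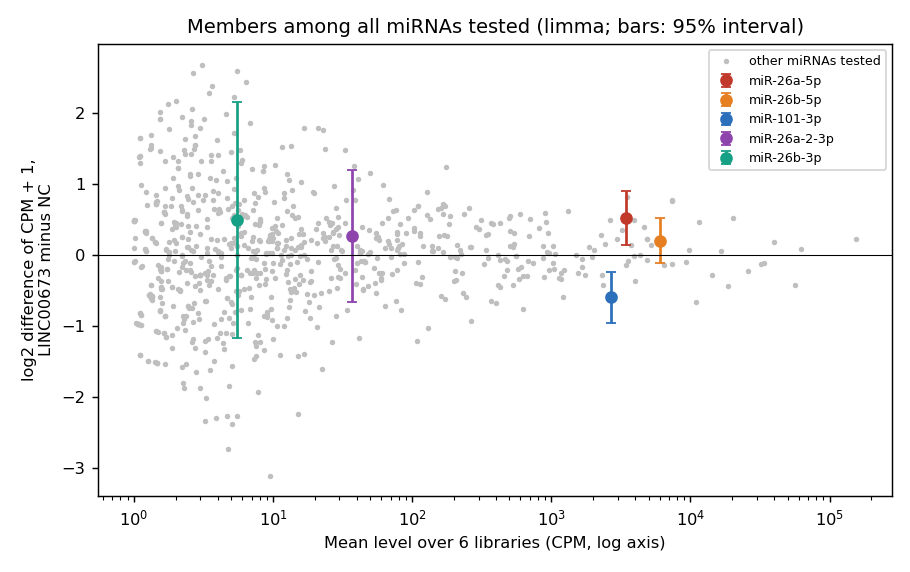
The log2 difference of CPM + 1 (LINC00673 minus NC) against the mean level over 6 libraries (log axis) for the 810 miRNAs tested, with the 5 tested members in colour and their 95% intervals from limma. The interval of miR-26a-5p (0.15 to 0.91) lies above 0, that of miR-101-3p (-0.96 to -0.24) below 0, and those of the other 3 members include 0. The intervals are not adjusted for the 810 tests, and no member passed limma after adjustment.

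**Figure D4:**
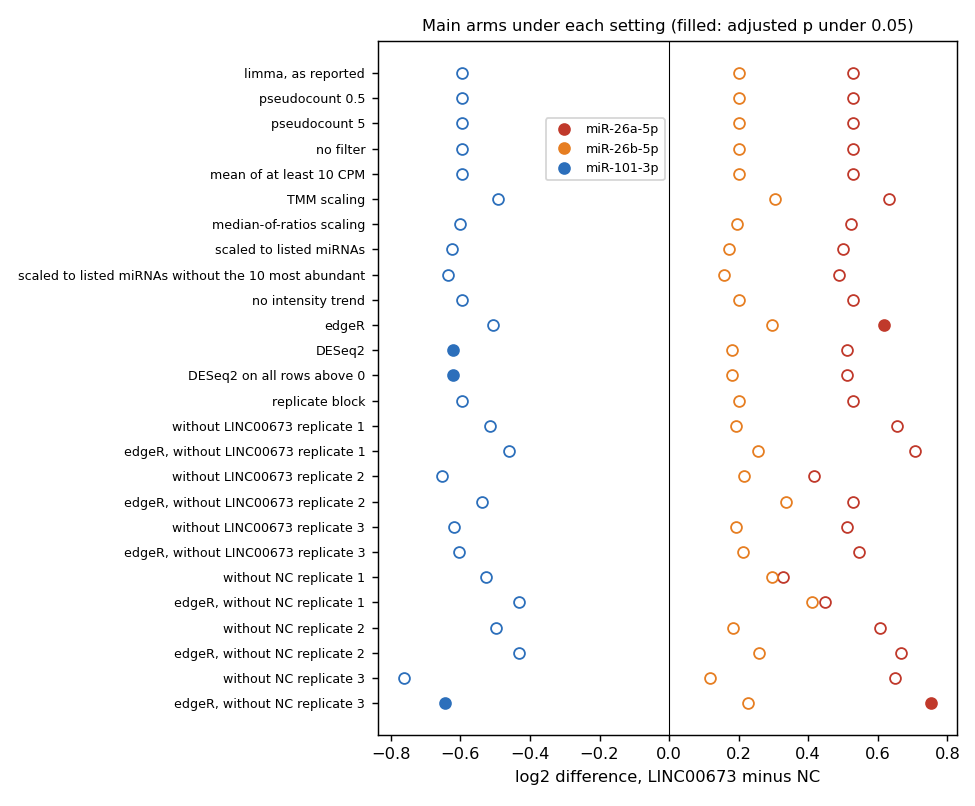
The log2 difference (LINC00673 minus NC) of the main arms under each setting run, 1 line for each, filled where the adjusted p was under 0.05. miR-26a-5p stays between 0.33 and 0.75, miR-26b-5p between 0.12 and 0.41 and miR-101-3p between -0.76 and -0.43, and few points are filled.

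The partner arms were far lower than the main arms. miR-26a-2-3p, which comes from MIR26A2 alone, had 28.9, 37.7 and 48.5 CPM in LINC00673 replicates 1, 2 and 3, against 51.7, 41.7 and 13.5 CPM in NC replicates 1, 2 and 3. The groups overlapped, and NC replicate 3 stood lowest on 4 reads. The log2 difference was 0.27, SE 0.45 (limma adjusted p = 0.916), and -0.30 without NC replicate 3. miR-26a-1-3p, from MIR26A1 alone and outside the 6 listed arms, had 23.7, 37.7 and 27.5 CPM in LINC00673 replicates 1, 2 and 3, against 33.1, 22.5 and 16.9 CPM in NC replicates 1, 2 and 3. Its groups overlapped too (log2 difference 0.31, limma adjusted p = 0.881).

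Both miR-26a loci thus gave 3p reads in every library, at 9 to 37 reads for each arm in the LINC00673 and 4 to 25 reads in the NC libraries, too few to say which locus miR-26a-5p followed. The ratio of miR-26a-5p to its summed 3p arms was 64.3, 62.5 and 54.3 in LINC00673 replicates 1, 2 and 3, against 25.0, 48.6 and 109 in NC replicates 1, 2 and 3. The LINC00673 libraries lay within the range of the NC libraries.

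miR-26b-3p had 2.63, 4.04 and 14.4 CPM in LINC00673 replicates 1, 2 and 3, against 2.07, 6.42 and 3.38 CPM in NC replicates 1, 2 and 3. It rested on 1, 3 and 11 reads in the LINC00673 libraries and 1, 2 and 1 reads in the NC libraries, so a difference was not detectable at this depth (log2 difference 0.50, SE 0.80, limma adjusted p = 0.916). The value was 1.10 in edgeR (adjusted p = 0.666) and 0.92 in DESeq2, which gave no adjusted p, and in limma it turned to -0.12 without LINC00673 replicate 3. The log2 ratio of miR-26b-5p to miR-26b-3p, with 1 CPM added to each, averaged 9.95 ± 1.09 in the LINC00673 group and 10.2 ± 0.75 in the NC group (± SD, n = 3 each, two-sided exact permutation p = 0.7). miR-101-5p was listed at 0 in each LINC00673 library and for NC replicates 2 and 3, and had 2 reads (4.14 CPM) in NC replicate 1. A count of 0 allows up to the floor of 3 reads given above, and at this depth neither a difference nor an arm ratio could be had for miR-101.

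**Figure D5:**
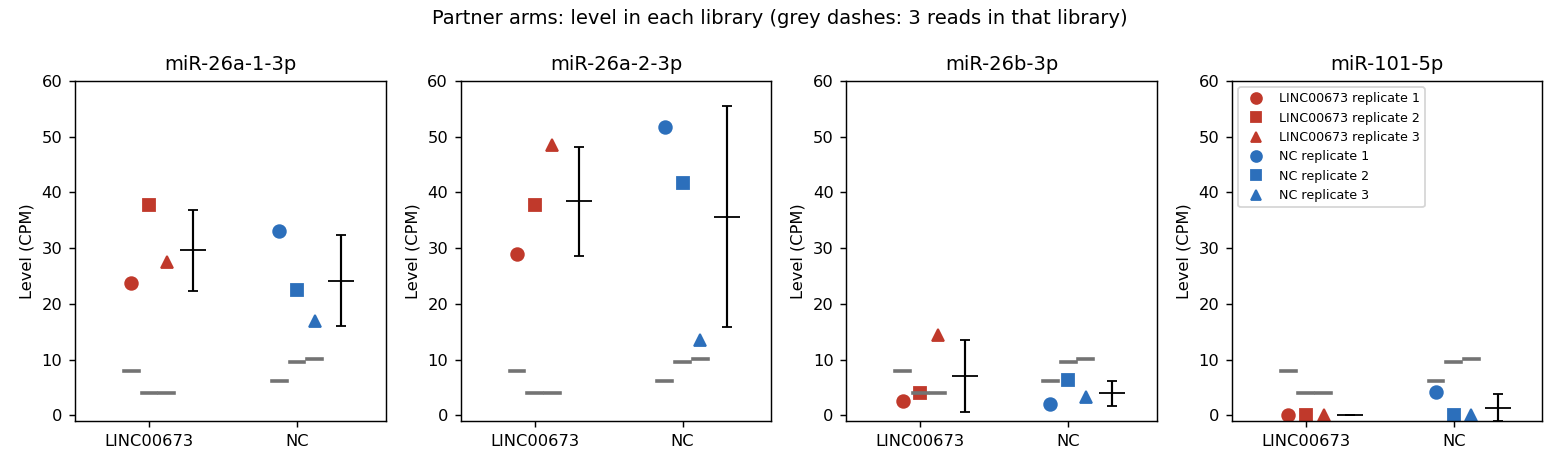
Levels of the partner arms in CPM, LINC00673 libraries on the left and NC libraries on the right of each panel, with group mean ± SD (n = 3) as black bars and grey dashes at the level of 3 reads in each library. The miR-26a 3p arms lie above the dashes in every library with overlapping groups, and miR-26b-3p and miR-101-5p lie around or under them, apart from LINC00673 replicate 3 at 14.4 CPM for miR-26b-3p.

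Other miRNAs reported to target EZH2 were read from a list of 13, of which 10 were tested. The others, miR-124-3p, miR-144-3p and miR-506-3p, were not among the 1155 miRNAs listed under these names. The log2 difference was above 0 for 9 of the 10, against 431 of all 810, with a median of 0.21 against 0.06 over all 810, and for 8 to 10 of them under other scalings, where miR-98-5p and let-7c-5p changed sign. The 9 included let-7c-5p at only 0.006 and miR-214-3p, which was near the floor. None passed limma, with 1 at an unadjusted p under 0.05 (against 6.67% of all miRNAs as higher). miR-30d-5p passed edgeR (adjusted p = 0.000213) and DESeq2 (adjusted p = 0.0423) as higher, with 9267 ± 1154 CPM in the LINC00673 group and 5573 ± 1675 CPM in the NC group (± SD, n = 3 each, log2 difference 0.77, limma adjusted p = 0.0571). These calls of 1 of the 10 stand against 1.85% of all miRNAs called higher by edgeR and 0.37% by DESeq2. The DESeq2 share counts low miRNAs that had no adjusted p and could not pass. The miR-30 family arms off the list, miR-30a-5p, miR-30b-5p, miR-30c-5p and miR-30e-5p, had limma log2 differences of -0.07, -0.30, -0.12 and -0.42. For the let-7 5p arms off the list, let-7e-5p, let-7f-5p, let-7g-5p and let-7i-5p, these were 0.07, -0.11, -0.05 and -0.44. The groups did not overlap, with LINC00673 higher, for 2 of the 10, against 7.78% of all miRNAs, namely for miR-30d-5p and for the abundant let-7a-5p, which had 41878, 41796 and 43912 CPM in LINC00673 replicates 1, 2 and 3, against 36535, 36889 and 38945 CPM in NC replicates 1, 2 and 3 (log2 difference 0.18, limma adjusted p = 0.694). miR-25-3p (16932 ± 1658 CPM in the LINC00673 group and 16293 ± 2032 CPM in the NC group) and let-7b-5p (3203 ± 293 against 2761 ± 528 CPM) overlapped. Of the miRNAs that share the miR-26 seed outside the family, miR-1297 and miR-4465 were not among the listed miRNAs either.

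The miRNAs whose pattern over the 6 libraries was most like that of each main arm were sought among the others with a mean of at least 100 CPM, by Pearson's r of log2(CPM + 1). For miR-26a-5p these were miR-31-5p, miR-100-5p and miR-27a-5p (r = 0.98, 0.97 and 0.97). For miR-101-3p they were miR-199a-5p, miR-218-5p and miR-151a-5p (r = 0.96, 0.95 and 0.93), and for miR-26b-5p miR-125b-5p, miR-146a-5p and miR-409-3p (r = 0.96, 0.96 and 0.86). Between the main arms r was 0.09 for miR-26a-5p and miR-26b-5p, -0.67 for miR-26a-5p and miR-101-3p and -0.36 for miR-26b-5p and miR-101-3p. These values describe 6 points that share groups, depth and the CPM total, and high values arise easily among 163 candidates.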

How the data were processed

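The authors deposited 1 table of reads per mature miRNA scaled to 1000000 per library (CPM) for 6 libraries, made with a NEBNext small RNA kit from TRIzol RNA per the labels' protocols. Per the submitters' processing notes the reference was hg38. The aligner, the miRBase release and the assignment of reads shared by similar arms are points not given in the sources used here. All values above 0 were whole multiples of 1 step per library (100% within 0.1 read), which gave back the reads, with library totals of 295567 to 762663, of which the listed miRNAs held 68.6% to 72.0%. The rows of miR-199a-3p and miR-199b-3p had the same mean (4901 CPM) and log2 difference (0.23). Their reads may thus be listed under both names, so the listed reads and shares may count some reads more than once. Libraries were grouped by the genotype label, with replicate numbers from the titles.

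The log2(CPM + 1) values of the 810 miRNAs that averaged 1 CPM or more were tested two-sided with limma 3.58.1 under R 4.3.3, with a variance prior that follows intensity, with p-values adjusted by Benjamini-Hochberg and called under 0.05. The added 1 CPM shrinks the differences of low arms. edgeR 4.0.16 (quasi-likelihood, TMM) and DESeq2 1.42.0 were run on the recovered reads of the same miRNAs. Ratios were compared by exact permutation. The 95% intervals are limma's and come from the spread between libraries, while floors of 3 reads cover counting error only, since no molecular identifiers are named. On simulated counts with 3 libraries a group, 100 miRNAs were changed by 1 on the log2 scale. Of these limma called 21%, and 73.7% of the 19 over 100 CPM. For those 19, edgeR and DESeq2 each called 84.2%. Every miRNA was simulated with the same dispersion, so these shares may not hold for the libraries here. Smaller changes were not simulated.

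The members and lists were chosen with earlier results of these data known. Named were the members, the other arms and seed relatives, the EZH2 list, and the 3 most similar patterns for each main arm.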

Additional observations from a re-analysis of the deposited data

How the results depend on the processing

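Over 25 alternatives the log2 difference of miR-26a-5p (0.33 to 0.75), miR-26b-5p (0.12 to 0.41) and miR-101-3p (-0.76 to -0.43) kept its sign. miR-26a-5p crossed the threshold in edgeR (0.62) and miR-101-3p in DESeq2 on the tested miRNAs or, added after seeing the data, on all rows (-0.62 each). Leaving out 1 library gave 0.33 to 0.66 in limma and 0.45 to 0.75 in edgeR for miR-26a-5p, 0.12 to 0.30 and 0.21 to 0.41 for miR-26b-5p, and -0.76 to -0.50 and -0.64 to -0.43 for miR-101-3p. Both miR-26a-5p and miR-101-3p passed edgeR without NC replicate 3 (0.75 and -0.64). The low partner arms changed sign: miR-26a-2-3p without NC replicate 3 (-0.30, and -0.16 in edgeR) or, in edgeR, without LINC00673 replicate 3 (-0.12), within -0.30 to 0.63, and miR-26b-3p without LINC00673 replicate 3 (-0.12, and -0.054 in edgeR), within -0.12 to 0.93 in limma and up to 1.57 in edgeR. The log2 ratio of miR-26b-5p to miR-26b-3p (-0.30) became 0.31 without LINC00673 replicate 3 and 0.09 without NC replicate 1, within -0.73 to 0.31. The other ratio differences kept their sign, at 0.86 to 1.41 for miR-26a-5p to miR-101-3p, 0.68 to 0.88 for miR-26b-5p to miR-101-3p and 0.03 to 0.53 for miR-26a-5p to miR-26b-5p on leaving out 1 library. The summed main arms differed by 473 to 1342 CPM in the same way.

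Of all miRNAs tested, the 2 higher calls became 0 with a pseudocount of 0.5, a minimum of 10 CPM or no intensity trend, 4 with no filter and 15 in edgeR. The 0 lower calls became 5 with a pseudocount of 5, 7 with no filter, in edgeR and in DESeq2 on either set of rows, 1 with median-of-ratios or listed-miRNA scaling and 3 with scaling that left out the 10 most abundant. Leaving out 1 library gave 0 calls in limma, and 0 to 36 higher and 0 to 13 lower in edgeR (8 lower without NC replicate 1). Replicate numbers did not pair the libraries (correlation of deviations 0.03, 0.07 and 0.01), and a replicate block gave 2 higher and 0 lower calls, with log2 differences of 0.53 for miR-26a-5p (adjusted p = 0.158) and -0.60 for miR-101-3p (adjusted p = 0.155), and 0.80 and 1.12 for the ratios to miR-101-3p. NC replicates 2 and 3 were the shallowest libraries, which limits what can be said of the partner arms. The cause of these changes was not tested.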
